A study of Mus musculus with 12 samples.

Results

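Interferon beta is the type I interferon that macrophages make when a bacterial product such as LPS reaches TLR4, and its gene is Ifnb1. It binds a receptor of the chains IFNAR1 and IFNAR2, to which the kinases TYK2 and JAK1 are bound, and the kinases then phosphorylate STAT2, which acts in the nucleus with IRF9. Interferon gamma, made mainly by T and NK cells, acts on macrophages through IFNGR1 and IFNGR2, with JAK1 on the former chain and JAK2 on the latter. The genes Ifnb1, Ifnar1, Ifnar2, Ifngr1, Ifngr2, Jak1, Jak2 and Tyk2, chosen by name, are described here. They are 8 of the 43131 genes in the count table, and for each the transcript with the highest total count was used.

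The counts come from BMDMs, macrophages grown over 7 days from the bone marrow of C57BL/6 mice in medium with M-CSF at 50 ng/mL. The mice were either tlr4f/f or tlr4f/f-lysM-cre, and the cells were left without LPS or kept for 6 h in LPS at 1 µg/mL. All mice carry the floxed tlr4. The tlr4f/f-lysM-cre mice also make Cre from the lysM (Lyz2) locus, which is active in myeloid cells and not in macrophages alone. There are 4 groups of 3 libraries, one for each genotype with each treatment, headed LPS- or LPS+ and the genotype. Summed over the transcript used for each gene, a library holds between 33577087 and 56445268 counts. No source used here says whether the 3 libraries of a group came from separate mice, so p-values measure the spread between these libraries, which may be technical.

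The column headings LPS+ tlr4f/f and, on the other side, LPS- tlr4f/f-lysM-cre may be exchanged. Tlr4, the deleted gene, was counted 4486, 9136 and 6449 times in LPS- tlr4f/f and 4367, 3041 and 3739 times in LPS- tlr4f/f-lysM-cre, against 1484, 1086 and 1412 in LPS+ tlr4f/f and 1191, 891 and 1117 in LPS+ tlr4f/f-lysM-cre. Thus the low Tlr4 counts followed LPS in the headings and not the genotype. Lyz2, the lysozyme gene that carries Cre, followed the same division, and Il1b, a cytokine gene that LPS is known to raise, had at most 405 counts in the 6 tlr4f/f libraries and at least 52432 in the 6 tlr4f/f-lysM-cre libraries. Groups are therefore named by their headings, and every comparison is given with both readings. Exchanging the headings changes the name of a comparison and not its libraries, so each value below stands in both readings.

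The libraries held macrophage RNA, with all 7 macrophage markers above 3 counts in every group. Their summed level was 6235 to 7196 CPM in LPS- tlr4f/f and 10569 to 13683 in LPS- tlr4f/f-lysM-cre. It was 4406 to 4668 CPM in LPS+ tlr4f/f and 7748 to 7950 in LPS+ tlr4f/f-lysM-cre. None of the 4 groups overlapped another, and the part of these markers in the levels of the 8 genes was not tested. CPM is the count relative to the library size as scaled by edgeR's TMM factors. Of 4 markers of plasmacytoid dendritic cells, which make much interferon, Siglech had no more than 3 counts in any library, while the summed level was 0.654 to 0.907 CPM in LPS- tlr4f/f, 2.52 to 9.62 in LPS- tlr4f/f-lysM-cre, 2.13 to 3.15 in LPS+ tlr4f/f and 5.11 to 5.98 in LPS+ tlr4f/f-lysM-cre. Within it Ccr9, named after its values were seen, had 1, 5 and 9 counts in LPS- tlr4f/f, 55, 107 and 111 in LPS- tlr4f/f-lysM-cre, 6, 4 and 2 in LPS+ tlr4f/f, and 72, 87 and 89 in LPS+ tlr4f/f-lysM-cre. Ccr9 thus moved with Ifnb1 between the genotype headings. The summed level did so less clearly, as its range in LPS+ tlr4f/f overlapped that of the tlr4f/f-lysM-cre group headed LPS-. Cox6a2, another of the 4 markers and also named after its values were seen, reached 172 counts in LPS+ tlr4f/f, where Ifnb1 had none. Its highest count was 186 and 164 in the tlr4f/f-lysM-cre groups headed LPS- and LPS+, against 49 in LPS- tlr4f/f. The part of these markers in the counts of Ifnb1 was not tested. The summed level of 6 neutrophil markers was 0.542 to 13.1 CPM in LPS- tlr4f/f and 14.1 to 182 in LPS- tlr4f/f-lysM-cre, and 4.55 to 7.14 in the groups headed LPS+, with Ly6g at no more than 3 counts in every library. The summed level of 5 fibroblast markers was 8.69 to 655 CPM in LPS- tlr4f/f, 137 to 1462 in LPS- tlr4f/f-lysM-cre, 19.9 to 24.5 in LPS+ tlr4f/f and 29.3 to 43.2 in LPS+ tlr4f/f-lysM-cre. Both groups headed LPS- also spread more widely between their libraries than both groups headed LPS+ in most of the 8 genes. In bulk RNA such as this, fewer cells of a type and less RNA per cell cannot be told apart.

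The promoters of the 8 genes differ, and 4 of them are shown because their genes gave the clearest patterns below. Positions are in GRCm38, the build the table calls mm10, and the sequences are RefSeq's, from GRCm38.p6, where all 8 genes had an entry. Each line holds 100 bases before the RefSeq start of the gene, 5′ to 3′ on the strand of the gene, with matches to motifs in capitals.
Ifnb1: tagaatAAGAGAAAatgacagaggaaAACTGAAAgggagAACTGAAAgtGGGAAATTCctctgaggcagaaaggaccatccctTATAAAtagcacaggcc
Jak2: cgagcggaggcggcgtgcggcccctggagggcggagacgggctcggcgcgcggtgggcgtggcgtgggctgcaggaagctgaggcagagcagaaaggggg
Ifngr1: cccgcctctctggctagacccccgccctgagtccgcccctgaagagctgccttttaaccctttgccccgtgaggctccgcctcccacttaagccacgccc
Ifngr2: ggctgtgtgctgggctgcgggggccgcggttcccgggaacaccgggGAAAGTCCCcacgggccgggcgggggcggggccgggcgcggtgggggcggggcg
They lie at chr4:88522860-88522959 on the minus strand for Ifnb1, and on the plus strand at chr19:29251683-29251782 for Jak2, chr10:19591829-19591928 for Ifngr1 and chr16:91546939-91547038 for Ifngr2. The motifs searched on both strands were AANNGAAA for IRF factors, GGGANNTTC for NF-kB, TTCNNNGAA, the GAS element, and the TATA box TATAAA. Over the 250 bases before the start, Ifnb1 held 3 IRF matches, which began 159, 139 and 126 bases before it, 1 NF-kB match at 116 and a TATA box at 82, as well as another TATA match at 210. None of these matches overlaps another. In 32851 windows of this length, 21.3% held an IRF match, 3.23% an NF-kB match, 7.02% a GAS match and 12.4% a TATA match. Ifngr2 had 1 NF-kB match, 74 bases before its start, and Ifnar2 had 1 GAS match at 214 bases. The other 5 genes held no match in this window, and a match or its absence describes letters only. The share of G and C was 39.6% for Ifnb1 and 80.8% for Jak2, against a median of 52.4% over all windows, with 1 and 37 CpG dinucleotides.

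Ifnb1, on chromosome 4 from 88522025 to 88522774, was counted 2, 1 and 2 times in LPS- tlr4f/f, 141, 96 and 150 times in LPS- tlr4f/f-lysM-cre, 0 times in all 3 libraries of LPS+ tlr4f/f, and 13, 17 and 23 times in LPS+ tlr4f/f-lysM-cre. The 2 tlr4f/f-lysM-cre groups did not overlap with each other or with either tlr4f/f group. A count of 0 in LPS+ tlr4f/f allows up to 0.0516 to 0.0768 CPM (3 counts per library, counting error only). The CPM means were 0.0292 ± 0.0115, 3.82 ± 0.834, 0 and 0.427 ± 0.111 in the order of the counts (SD, n = 3). Ifnb1 was the lowest of the 8 genes in all 4 groups per kb of transcript, so its values rest on few counts.

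No other interferon gene came near the counts of Ifnb1 in the tlr4f/f-lysM-cre groups. Of 20 other ligand genes, all listed Ifna genes among them, 17 had no count in any of the 12 libraries, and none passed the filter on low counts. The highest count of any of them in a library was 5. Ifng, the gene of interferon gamma, had 8 counts in all and Ifnk, an interferon gene of keratinocytes, 23. Both are named after their values were seen. Ifnk had 0, 2 and 3 counts in LPS- tlr4f/f and 1, 4 and 0 in LPS+ tlr4f/f, so Ifnb1 did not stand above it in these groups.

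**Figure D1:**
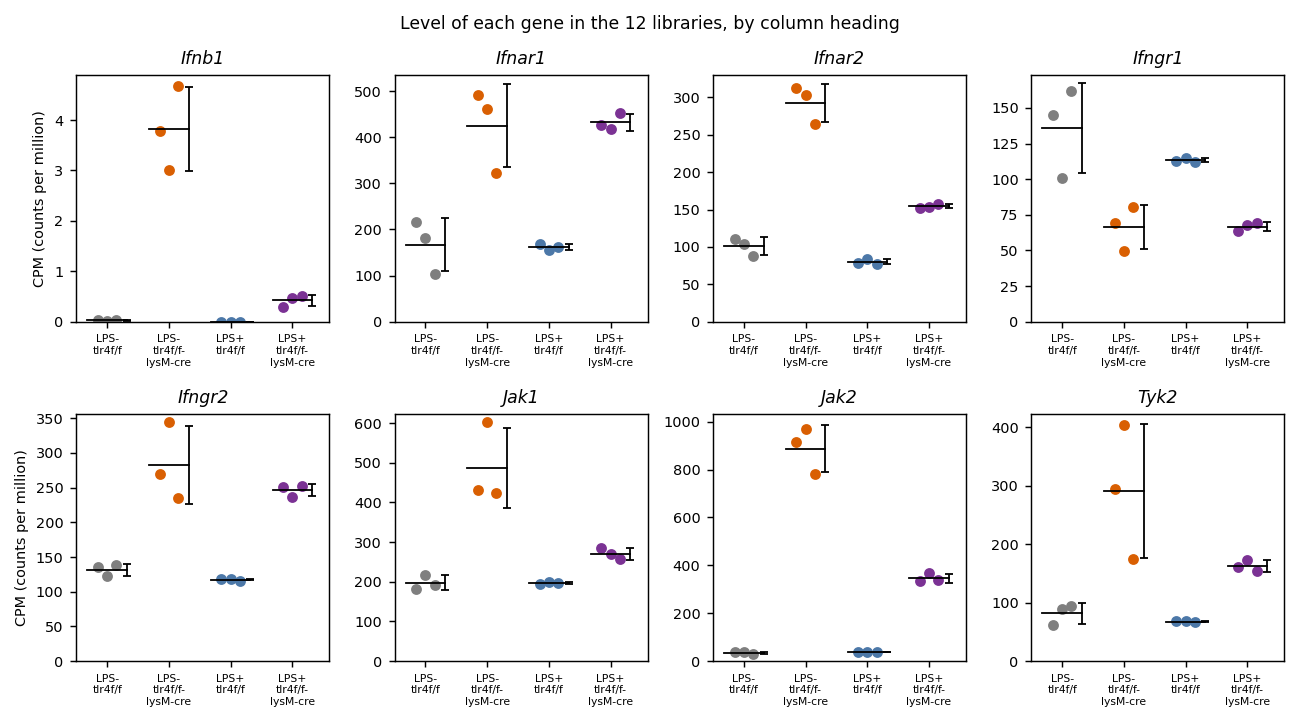
The 8 panels plot CPM (y axis, linear from 0) of each gene in each library (points) by column heading (x axis), with the mean (line) and SD (bar, n = 3). Ifngr1 alone is lower in both tlr4f/f-lysM-cre groups than in both tlr4f/f groups. Ifnb1, Ifnar2, Jak1, Jak2 and Tyk2 are highest in LPS- tlr4f/f-lysM-cre, without overlap.

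Among the receptor genes, Ifnar1 codes for the chain that binds TYK2. It lies on chromosome 16 from 91485238 to 91507441. Its level was 217, 181 and 104 CPM in LPS- tlr4f/f and 492, 461 and 323 in LPS- tlr4f/f-lysM-cre, and 169, 155 and 163 in LPS+ tlr4f/f and 426, 418 and 453 in LPS+ tlr4f/f-lysM-cre. Every tlr4f/f-lysM-cre library was above every tlr4f/f library, and the groups that share a genotype heading overlapped.

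Ifnar2 codes for the chain that binds JAK1 and contributes most to the binding of interferon. It lies on the same chromosome from 91372783 to 91405589. Levels were 111, 104 and 87.6 CPM in LPS- tlr4f/f, 312, 303 and 264 in LPS- tlr4f/f-lysM-cre, 79.1, 84.2 and 77.3 in LPS+ tlr4f/f, and 152, 154 and 158 in LPS+ tlr4f/f-lysM-cre. None of the 4 groups overlapped another, and LPS- tlr4f/f-lysM-cre was the highest. A shorter transcript of Ifnar2, known for a soluble receptor, has a row of its own. Its count was 0.713 ± 0.0455 of that of the long transcript in LPS- tlr4f/f and 0.716 ± 0.0148 in LPS+ tlr4f/f, but 0.569 ± 0.0411 in LPS- tlr4f/f-lysM-cre and 0.601 ± 0.0102 in LPS+ tlr4f/f-lysM-cre (SD, n = 3). The tlr4f/f and tlr4f/f-lysM-cre libraries did not overlap in this ratio, which was not tested. The rows share 972 exonic bases and so share reads, and the ratio is not the share of an isoform.

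Ifngr1 codes for the chain that binds interferon gamma. It lies on chromosome 10 from 19591949 to 19610229. Unlike the other genes it was lower in the tlr4f/f-lysM-cre groups, with 69.1, 49.6 and 80.4 CPM in LPS- tlr4f/f-lysM-cre and 63.4, 67.6 and 69.1 in LPS+ tlr4f/f-lysM-cre. Levels in LPS- tlr4f/f were 145, 101 and 162 CPM, and those in LPS+ tlr4f/f were 113, 115 and 112, all above the tlr4f/f-lysM-cre libraries.

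Ifngr2, its partner chain, lies on chromosome 16 from 91547072 to 91565623. It measured 135, 122 and 138 CPM in LPS- tlr4f/f, 270, 345 and 235 in LPS- tlr4f/f-lysM-cre, 118, 118 and 116 in LPS+ tlr4f/f and 251, 237 and 253 in LPS+ tlr4f/f-lysM-cre. Both tlr4f/f-lysM-cre groups were above both tlr4f/f groups and overlapped each other. Per kb of transcript, the scale on which levels of different genes are compared, the ratio of Ifngr1 to Ifngr2 was 1.01 ± 0.178 in LPS- tlr4f/f and 0.952 ± 0.00933 in LPS+ tlr4f/f. It was 0.244 ± 0.0979 in LPS- tlr4f/f-lysM-cre and 0.267 ± 0.0166 in LPS+ tlr4f/f-lysM-cre (SD, n = 3). Hence the level of the ligand-binding chain was close to that of its partner in tlr4f/f libraries and well below it in tlr4f/f-lysM-cre libraries. The ratio of Ifnar1 to Ifnar2 had another order, 0.706 ± 0.172, 0.626 ± 0.0824, 0.882 ± 0.0712 and 1.21 ± 0.0298 from LPS- tlr4f/f to LPS+ tlr4f/f-lysM-cre, and only the last group stood clear of the other 3. These ratios are descriptions and were not tested.

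Of the kinase genes, Jak1 codes for the kinase that both receptors use, and it lies on chromosome 4 from 101152367 to 101265282. Levels were 182, 218 and 191 CPM in LPS- tlr4f/f, 431, 602 and 424 in LPS- tlr4f/f-lysM-cre, 195, 200 and 197 in LPS+ tlr4f/f, and 286, 269 and 256 in LPS+ tlr4f/f-lysM-cre. The tlr4f/f groups overlapped each other, and the tlr4f/f-lysM-cre groups did not.

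Jak2, the kinase gene of the interferon gamma receptor and of the receptors of GM-CSF and IL-12, lies on chromosome 19 from 29251828 to 29313080. It had the widest range of the receptor and kinase genes. Its level was 36.5, 37.6 and 28.9 CPM in LPS- tlr4f/f and 38.7, 39.6 and 37.7 in LPS+ tlr4f/f, but 915, 969 and 780 in LPS- tlr4f/f-lysM-cre and 333, 366 and 338 in LPS+ tlr4f/f-lysM-cre. The lowest tlr4f/f-lysM-cre library was thus many times above the highest tlr4f/f library.

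Tyk2, the kinase gene of the type I receptor, lies on chromosome 9 from 21104068 to 21131243. It was at 61.6, 88.7 and 94.5 CPM in LPS- tlr4f/f, 294, 404 and 175 in LPS- tlr4f/f-lysM-cre, 68.1, 67.7 and 66.1 in LPS+ tlr4f/f, and 160, 173 and 154 in LPS+ tlr4f/f-lysM-cre. Its lowest LPS- tlr4f/f-lysM-cre library was barely above the highest LPS+ tlr4f/f-lysM-cre library. The spans of Jak1 and Tyk2 overlap genes of the opposite strand. That of Jak1 also overlaps a pseudogene of the same strand, and that of Ifnar2 a gene of the same strand. The strand setting of the counting is not given in the sources used here, so some reads of these genes may belong to the neighbour.

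The mix of kinase transcripts differed with the level of Jak2. Of the summed level per kb of Jak1, Jak2, Jak3 and Tyk2, Jak2 made up 9.95% ± 1.46 in LPS- tlr4f/f and 12.1% ± 0.167 in LPS+ tlr4f/f, against 52.3% ± 4.11 in LPS- tlr4f/f-lysM-cre and 43.3% ± 1.41 in LPS+ tlr4f/f-lysM-cre (SD, n = 3). Jak1 was the most abundant of the 4 in tlr4f/f libraries, at 54.3% ± 0.883 and 59.0% ± 0.676, and fell behind Jak2 in tlr4f/f-lysM-cre libraries, at 27.0% ± 2.16 and 32.3% ± 1.62. The share of Tyk2 was between 17.1% and 24.4% in the 4 groups.

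**Figure D2:**
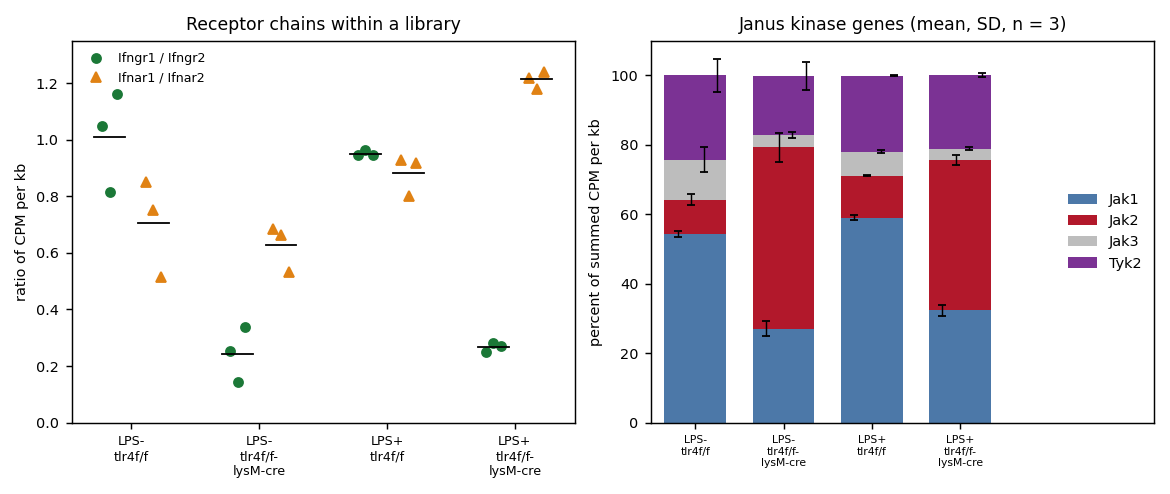
On the left, the ratio of CPM per kb of the receptor chains (y axis) in each library (points, mean as a line) by column heading (x axis); on the right, the mean share of each kinase gene in their summed CPM per kb (stacked bars from 0, with the SD of each share, n = 3, at its upper edge). The Ifngr1 to Ifngr2 ratio is near 1.01 and 0.952 in the tlr4f/f groups and 0.244 and 0.267 in the others, where Jak2 takes 52.3% and 43.3%.

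Put in order per kb, Ifngr1 and Ifngr2 were the highest of the 8 genes in LPS- tlr4f/f, at 64.8 and 63.7 CPM per kb, and overlapped. In LPS+ tlr4f/f they were also the highest, at 54.0 and 56.7. Jak1, Ifnar2, Ifnar1, Tyk2, Jak2 and Ifnb1 followed in the same order in both groups, and in LPS- tlr4f/f the libraries of Jak1 and Ifnar2, of Ifnar2 and Ifnar1, and of Ifnar1 and Tyk2 overlapped. In LPS- tlr4f/f-lysM-cre the order began with Jak2 at 176 and Ifngr2 at 137 CPM per kb, which overlapped, and in LPS+ tlr4f/f-lysM-cre with Ifngr2 at 119 and Jak2 at 68.5, which did not. Ifngr1 had moved down to the place above Ifnb1 in both, at 31.6 and 31.8 CPM per kb.

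The groups were compared with the quasi-likelihood test of edgeR. Adjusted p are by Benjamini and Hochberg over every gene tested, and a gene was called if its adjusted p was below 0.01 and its fold above 2. The first comparison set LPS+ tlr4f/f-lysM-cre against LPS+ tlr4f/f. As headed it asks for the effect of the genotype under LPS. With the headings exchanged it asks for the effect of LPS in tlr4f/f-lysM-cre. Ifnb1, Ifnar1, Ifngr2, Jak2 and Tyk2 rose, 5 of the 8 genes, and no member fell by the criteria, where 10.8% of the 14540 genes tested rose and 10.9% fell. Ifnb1 was at least 6.69-fold higher (53 counts against 0, floor of 3 counts per library, adjusted p = 0.000139 by edgeR). Jak2 rose 8.91-fold, a log2 fold change of 3.16 with a standard error of 0.0591 (adjusted p = 1.03e-12, edgeR). Ifnar1 rose 2.65-fold, Tyk2 2.40-fold and Ifngr2 2.09-fold, with log2 fold changes of 1.40, 1.26 and 1.07 and adjusted p from edgeR of at most 2.02e-09.

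The other 3 genes of this comparison missed the fold limit but not the p. Ifnar2 was 1.92 times and Jak1 1.37 times its level in LPS+ tlr4f/f (log2 fold changes of 0.94 and 0.45), and Ifngr1 was 0.586 times that level, a log2 fold change of -0.77 with a standard error of 0.0523 (adjusted p = 6.23e-08, edgeR). All 8 genes had an adjusted p below 0.05, as had 61.4% of all genes, and all 8 had no overlap between the groups, as had 67.3%. The large share of all genes limits what these latter counts say of the 8. The number called was 5 with each library left out in turn. All 5 fibroblast markers were also higher in LPS+ tlr4f/f-lysM-cre, 1 of them called, and the summed level of the plasmacytoid dendritic cell markers was higher without overlap. Of the 7 macrophage markers, 5 were higher, 2 of them called, and 2 were lower. The part of these lists in the differences was not tested.

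LPS- tlr4f/f-lysM-cre was compared with LPS- tlr4f/f, which is the genotype without LPS as headed, and LPS in tlr4f/f with the headings exchanged. It shares no library with the comparison above. Ifnb1, Ifnar2, Ifngr2, Jak1, Jak2 and Tyk2 rose, 6 of the 8 genes, where 9.25% of 14635 genes rose and 7.81% fell. Ifnb1 had 387 counts against 5, which for their depths is a ratio of 133, with a 95% interval of 56.5 to 412 that covers counting error only (adjusted p = 0.000640, edgeR). Jak2 rose 25.7-fold, a log2 fold change of 4.68 with a standard error of 0.217 (adjusted p = 0.000394, edgeR). Smaller rises were 3.53-fold for Tyk2, 2.88-fold for Ifnar2, 2.44-fold for Jak1 and 2.13-fold for Ifngr2, on log2 scale 1.82, 1.53, 1.29 and 1.09.

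Ifnar1 was 2.52 times the level of LPS- tlr4f/f (log2 fold change of 1.33, adjusted p = 0.0180 by edgeR) and Ifngr1 0.487 times (log2 fold change of -1.04, adjusted p = 0.0219 by edgeR), so both passed the fold limit and missed the p. Adjusted p was below 0.05 for all 8 genes and for 37.3% of all genes, and the groups did not overlap for all 8 and for 54.2%. Left out in turn, each LPS- tlr4f/f library and the first and second LPS- tlr4f/f-lysM-cre library ended the calls of Ifngr2, Jak1 and Tyk2, whose adjusted p by edgeR then reached up to 0.0258, 0.0177 and 0.0253. This left 3 genes called, Ifnb1, Ifnar2 and Jak2. The 5 fibroblast markers had a median log2 fold change of 2.52 here, with 1 of them at an adjusted p below 0.05 by edgeR and none called, and the ranges of their summed level overlapped. The neutrophil and plasmacytoid dendritic cell markers were higher as well, without overlap of their summed levels. The summed level of the macrophage markers was also higher without overlap, with 5 of the 7 higher, 2 lower and none called. The part of these lists in the differences was not tested. In both comparisons of tlr4f/f-lysM-cre with tlr4f/f columns, the 4 genes Ifnb1, Ifngr2, Jak2 and Tyk2 rose, as did 6.46% of the 13912 genes tested in both.

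**Figure D3:**
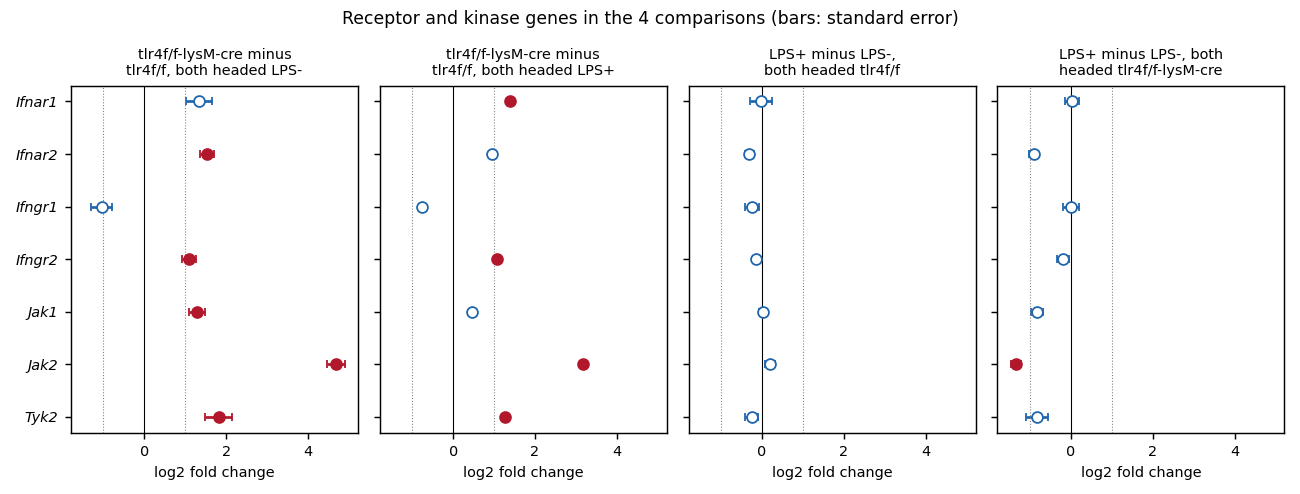
Log2 fold changes (x axis, with standard errors) of the 7 receptor and kinase genes (rows) in 4 comparisons of column groups (panels), filled red where called and open blue where not. Dotted lines mark a fold of 2. Jak2 lies at 4.68 and 3.16 in the first 2 panels, Ifngr1 at -1.04 and -0.77, and no gene is called in the third panel.

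LPS+ tlr4f/f against LPS- tlr4f/f is LPS in tlr4f/f as headed, and the genotype without LPS when the headings are exchanged. No member was called, as was no gene at all (0.00% of 14701), while 3624 genes had an unadjusted p below 0.05 by edgeR and DESeq2 called 493 genes by the same criteria, none of them a member. Adjusted p was below 0.05 for 1.27% of genes and for no member. The 7 members tested had log2 fold changes from -0.31 for Ifnar2 (standard error 0.115) to 0.20 for Jak2 (standard error 0.122). The libraries did not overlap for Ifnar2 and Ifngr2, which were lower in LPS+ tlr4f/f, and Jak2, which was higher, 3 genes against 35.5% of all genes. Ifnb1, with 5 counts against 0, was too low to test, and no fold is given. These values do not show that the levels were alike, as the standard errors ran from 0.0833 for Ifngr2 to 0.264 for Ifnar1. The fit also takes a single spread per gene for both groups, though LPS- tlr4f/f spread more widely in the members tested.

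In LPS+ tlr4f/f-lysM-cre against LPS- tlr4f/f-lysM-cre, Ifnb1 and Jak2 fell, and no member rose, where 2.42% of 14234 genes rose and 3.65% fell. As headed this is LPS in tlr4f/f-lysM-cre, and with the headings exchanged it is the genotype under LPS. Ifnb1 was 8.97-fold lower (53 counts against 387, 95% interval of 6.72 to 12.2 for counting error, adjusted p = 0.00261 by edgeR). Jak2 fell to 0.392 times its level in LPS- tlr4f/f-lysM-cre, or -1.35 in log2 with a standard error of 0.122 (adjusted p = 0.00143, edgeR). Ifnar2 and Jak1, at 0.531 and 0.561 times, had an adjusted p below 0.05 by edgeR (0.00281 and 0.0111), as had 26.7% of all genes. Tyk2, at 0.565 times, did not (0.0648). The log2 fold changes of Ifnar1, Ifngr1 and Ifngr2 lay between -0.19 and 0.03. The groups did not overlap for Ifnb1, Ifnar2, Jak1, Jak2 and Tyk2, all lower, 5 genes against 48.0% of all genes.

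Both calls ended without any 1 of the LPS+ tlr4f/f-lysM-cre libraries, with adjusted p of up to 0.0245 for Ifnb1 and 0.0206 for Jak2 by edgeR, while the log2 fold change of Jak2 stayed between -1.45 and -1.29. The same omissions cut the calls over all genes from 865 to between 4 and 15. All 5 fibroblast markers were lower in LPS+ tlr4f/f-lysM-cre, with adjusted p below 0.05 by edgeR and 2 of them called. The summed levels of the neutrophil and of the macrophage markers were lower without overlap. The part of these lists in the lower Jak2 and Ifnb1 was not tested.

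LPS+ tlr4f/f-lysM-cre against LPS- tlr4f/f pairs the same libraries in both readings and changes genotype and LPS at once, so the effects of these cannot be told apart. Ifnb1, Ifnar1 and Jak2 rose, where 6.92% of genes rose, and Ifngr1 fell, where 6.45% fell. Ifngr1 was 0.490 times the level of LPS- tlr4f/f (adjusted p = 0.00622 by edgeR, log2 fold change of -1.03 with an error of 0.180). This is the only comparison in which Ifngr1 passed the criteria. Jak2 rose 10.1-fold (adjusted p = 0.000128), Ifnar1 2.58-fold, and Ifnb1 in the ratio of 53 to 5 counts, 14.8 for their depths with a 95% counting interval of 5.97 to 47.6. All 8 genes had an adjusted p below 0.05 by edgeR, as had 40.8% of genes, and no overlap, as had 58.0%. Without any 1 of the LPS+ tlr4f/f-lysM-cre libraries only Jak2 was called, and without the first or second LPS- tlr4f/f library 2 genes were.

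The interaction asks whether the difference between LPS+ and LPS- differs between the genotypes, and its value is the same in both readings. Jak2 alone of the 8 genes was called, where 1.04% of 15775 genes were. Its log2 value was -1.53 with a standard error of 0.178 (adjusted p = 0.00236, edgeR), so that the level in LPS+ tlr4f/f-lysM-cre was 0.346 times what the other 3 groups would give if the effects added on the log scale. Jak1, at -0.85 (adjusted p = 0.0313), and Ifnar2, at -0.59 (adjusted p = 0.0434), passed only the looser limit of 0.05 by edgeR, as did 6.99% of genes. No interaction is given for Ifnb1, since a group is at 0. The call of Jak2 was lost without any 1 of the 6 libraries headed LPS+, with adjusted p of 0.0110 to 0.0136 by edgeR while its sign was kept, and the call stood without any of the others.

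Ifnar2, Ifnar1 and Ifngr2 stand in a row on chromosome 16, within 193 kb and with Il10rb, a receptor gene of IL-10 and interferon lambda, between the first and the second. In the first comparison the log2 fold change of Il10rb was 0.50, with a standard error of 0.0489, and in the second 0.25, with one of 0.139, lower than those of the 3 interferon receptor genes in both. It is named after its values were seen. Of the 8 genes of the cluster and its neighbours, those called were Ifnar1 and Ifngr2 in the first comparison, and Ifnar2, Ifngr2 and, lower, Gart in the second. Of all genes, 10.8% rose and 10.9% fell in the first, and 9.25% rose and 7.81% fell in the second. Gart, a gene of purine synthesis beyond the cluster, fell with a log2 fold change of -1.33 there (adjusted p = 0.00283, edgeR), a call that was lost without the second or the third LPS- tlr4f/f-lysM-cre library.

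**Figure D4:**
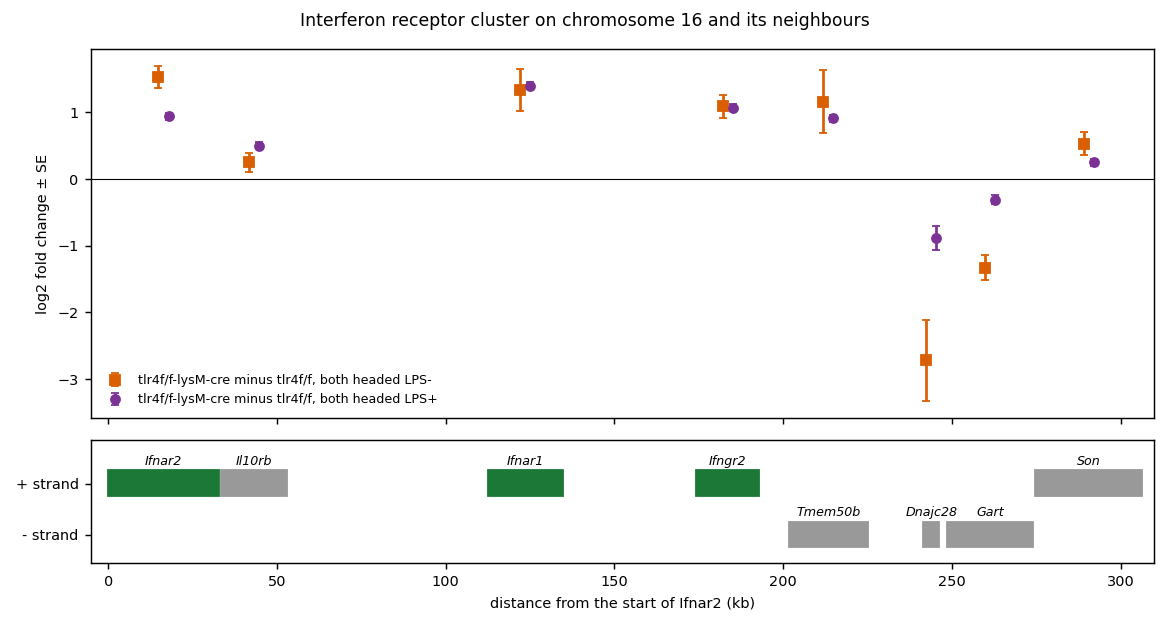
Upper panel, log2 fold change with its standard error (y axis) of 8 neighbouring genes against the distance of their middle from the start of Ifnar2 in kb (x axis), in the comparisons of tlr4f/f-lysM-cre with tlr4f/f columns headed LPS- (squares) and LPS+ (circles). Lower panel, the genes to scale on both strands, interferon receptor genes in green; Il10rb, at 0.25 and 0.50, lies below the 3 receptor genes.

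Other genes of the pathway come from lists made from general knowledge, and are set beside the median log2 fold change of all genes, -0.02 in LPS+ tlr4f/f-lysM-cre against LPS+ tlr4f/f and -0.08 in LPS- tlr4f/f-lysM-cre against LPS- tlr4f/f. In the former 10.8% of all genes tested rose and 10.9% fell, and in the latter 9.25% rose and 7.81% fell. Of 11 genes that lead from TLR4 to the Ifnb1 promoter, 6 rose in the former and 5 in the latter, none fell, and the medians were 1.07 and 1.38. Nfkb1, which codes for an NF-kB subunit, and Ikbke, a kinase of IRF3 and IRF7, changed most, with log2 fold changes of 2.86 and 2.60 in the former and 3.05 and 2.79 in the latter. Nfkb1 measured 94.1, 88.9 and 125 CPM in LPS- tlr4f/f, 1124, 849 and 590 in LPS- tlr4f/f-lysM-cre, 85.7, 90.6 and 83.4 in LPS+ tlr4f/f and 621, 657 and 617 in LPS+ tlr4f/f-lysM-cre, and its tlr4f/f-lysM-cre groups, unlike those of Jak2, overlapped. In LPS+ tlr4f/f-lysM-cre against LPS- tlr4f/f-lysM-cre, 1 gene of the list was called, Irf7, the transcription factor that amplifies type I interferon, which fell by 2.17 on the log2 scale. In LPS+ tlr4f/f against LPS- tlr4f/f none of the 11 was called, with 9 lower and 2 higher. Irf7 measured 95.5, 90.9 and 53.4 CPM in LPS+ tlr4f/f there, against 782, 545 and 104 in LPS- tlr4f/f. The 5 rises in LPS- tlr4f/f-lysM-cre against LPS- tlr4f/f became 3 without the second LPS- tlr4f/f library or the second or the third of LPS- tlr4f/f-lysM-cre.

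Downstream of the receptors, Stat2 rose in both comparisons of tlr4f/f-lysM-cre with tlr4f/f columns, by 2.41 with LPS+ in the heading and 2.53 with LPS- (log2). Irf9, whose product binds that of Stat2, had 0.68 and 0.73 and was not called. Stat2 also fell by 1.10 in LPS+ tlr4f/f-lysM-cre against LPS- tlr4f/f-lysM-cre, while Irf9 had -0.70 and was not called. Neither was called in LPS+ tlr4f/f against LPS- tlr4f/f, with Stat2 at 103, 103 and 86.1 against 196, 230 and 151 CPM. Irf9 measured 54.9, 58.4 and 48.3 against 80.9, 77.5 and 97.0 CPM there.

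Among 9 inhibitors of receptor signalling, 5 rose in the first of these comparisons and 4 in the second, and none fell. Socs3 and Socs1, whose products bind JAK kinases and their receptors, had the largest changes, log2 fold changes of 7.65 and 5.54 with LPS+ in the heading and 8.17 and 5.95 with LPS-. Socs1 measured 1.92, 2.23 and 2.54 CPM in LPS- tlr4f/f, 88.2, 232 and 97.9 in LPS- tlr4f/f-lysM-cre, 1.09, 1.66 and 0.809 in LPS+ tlr4f/f, and 47.6, 59.1 and 53.9 in LPS+ tlr4f/f-lysM-cre. Socs3 and Usp18, whose product sits on IFNAR2 and dampens it, fell by 2.14 and 1.70 (log2) in LPS+ tlr4f/f-lysM-cre against LPS- tlr4f/f-lysM-cre. In LPS+ tlr4f/f against LPS- tlr4f/f no inhibitor was called, with 5 lower and 4 higher. Usp18 measured 22.9, 23.6 and 19.9 against 74.7, 48.0 and 68.3 CPM there. Socs3 measured 1.99, 3.20 and 1.96 against 10.6, 9.71 and 1.18 CPM.

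Receptor genes of other cytokines that use these kinases, with Jak3, did not all move one way. Of 12 tested, 4 rose and 1 fell in the first comparison, where 10.8% of all genes rose and 10.9% fell. In the second, 2 rose and 2 fell, where 9.25% of all genes rose and 7.81% fell. Called or not, 9 of the 12 were higher in each comparison, with medians of 0.73 and 0.80. Csf3r, the G-CSF receptor gene, and Il13ra1, a receptor gene of IL-13, were the called genes with the largest changes in the first, with log2 fold changes of 2.96 and 2.37. Il4ra, the IL-4 receptor gene, and Il13ra1 were the called genes with the largest changes in the second, with 2.59 and 2.51, and leaving out 1 of 4 libraries, the third of LPS- tlr4f/f or any of LPS- tlr4f/f-lysM-cre, left 1 gene risen. Csf3r had a larger log2 fold change there, 3.61, but was not called (adjusted p = 0.0176, edgeR).

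The targets of the receptors were counted too, on lists chosen with results of these libraries known, so their counts are descriptions. Of 26 targets of type I interferon, 26 rose in LPS+ tlr4f/f-lysM-cre against LPS+ tlr4f/f and 25 in LPS- tlr4f/f-lysM-cre against LPS- tlr4f/f, with medians of 3.84 and 3.67, and 17 fell in LPS+ tlr4f/f-lysM-cre against LPS- tlr4f/f-lysM-cre, with a median of -1.29 where that of all genes was 0.03. Cxcl10, a chemokine gene, and Rsad2, an antiviral gene, changed most in the first, by log2 fold changes of 7.85 and 6.08, and in the second, by 9.52 and 6.80. Isg20 and Oasl1, also antiviral, had the largest falls in the last, log2 fold changes of -2.97 and -2.77. Of 19 interferon gamma targets tested, 12 rose in each of the former comparisons and 7 fell in the last. Gbp5, a guanylate-binding protein gene, and Cxcl9, a chemokine gene, had the largest rises in both. In LPS+ tlr4f/f-lysM-cre against LPS- tlr4f/f-lysM-cre, 3.65% of all genes fell, and the calls of the falls depended on each LPS+ library. Without any 1 of these libraries, 0 to 1 of the type I targets and 0 to 1 of the interferon gamma targets were called. Calls over all genes dropped in the same way, as given above. All 26 type I targets stayed lower, with a median between -1.29 and -1.26. The same omissions left 0 calls among the genes leading to the Ifnb1 promoter, the inhibitors and, with Stat2, the genes downstream of the receptors named above. In LPS+ tlr4f/f against LPS- tlr4f/f no target was called, but all 26 type I targets were lower, with a median of -1.13. That of all genes was -0.03. Adjusted p was below 0.05 by edgeR for 5 of the 26 and for 1.27% of all genes. Of the 19 interferon gamma targets, 15 were lower there and 4 higher. The interaction called 0 of the 26, with a median of -0.13 where that of all genes was 0.07.

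Across the 12 libraries, Ifnar1, Ifnar2, Ifngr2, Jak1, Jak2, Tyk2 and Ifnb1 correlated with one another, with Pearson's r of log2 CPM from 0.76 for Ifnar1 and Jak1 to 0.98 for Ifnb1 and Ifnar2, and Ifngr1 with each of them at -0.91 to -0.77. These r describe 12 libraries in 4 groups, which they share, and carry no p. Over 15775 genes, the 2 with the highest r to Ifnb1 were Tlr3 (0.994), which codes for the receptor of double-stranded RNA, and Peli1 (0.993), an E3 ubiquitin ligase gene of Toll-like receptor signalling. For Ifnar1 they were Micall2 (0.991) and Gbp7 (0.983), for Ifnar2 Rhog (0.998) and Ogfr (0.995), and for Ifngr2 Elf4 (0.990) and Xkr8 (0.989). For Ifngr1 they were Lmtk2 (0.976) and Bmf (0.973). For the kinases they were Paf1 (0.989) and Nlgn2 (0.986) for Jak1, Tmem2 (0.998) and Stard5 (0.997) for Jak2, and Dbnl (0.990) and Arel1 (0.986) for Tyk2. Many genes follow the same 4 group levels, and by Spearman's rho none of these 16 genes stayed among the 2 nearest.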

How the data were processed

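RNA of 12 BMDM libraries was sequenced by the authors. Per the labels, both removal of ribosomal RNA and poly(A) selection are named for the libraries, and the submitters' processing notes name FastQC, Trimmomatic 0.36, HISAT2, HTSeq and mm10. The table deposited by the authors has 115140 transcript rows of raw counts. The transcript row with the highest total was taken for each of 43131 genes, 27 rows being those of the 8 genes described. Rows of 1 gene share reads.

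Testing used edgeR 4.0.16 under R 4.3.3, with TMM factors, the filter of filterByExpr, robust quasi-likelihood fits and Benjamini-Hochberg adjustment over all genes tested, each comparison on its own 6 libraries and the interaction on all 12. As in the study, a call needed an adjusted p under 0.01 together with a fold over 2. CPM per kb used the length given in the table. Correlations used log2 CPM with a prior count of 2. Ratios of Ifnb1 counts carry exact conditional binomial intervals, and counts without molecular identifiers give counting error only. Gene positions are from GENCODE M21. The fits were tested on simulated data. Alternatives were DESeq2 1.42.0, RLE factors, no filter, a looser threshold, summed transcript rows, a replicate block, 1 fit of all libraries and leaving out each library.

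The 8 genes and the gene lists were chosen with earlier results of these data known. Named besides the 8 are Tlr4, Lyz2 and Il1b as checks of the headings, the 2 genes most like each member, the 2 called genes with the largest change of each list in a comparison, and all genes of a list of up to 5, with further names said to be chosen later. One gene that this rule names is not reported here.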

Additional observations from a re-analysis of the deposited data

Results flagged for a closer look

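The test of the interaction in edgeR gave an adjusted p below 0.05 for 3 of the receptor and kinase genes, as it did for 6.99% of all genes tested. The log2 value was -1.53 for Jak2 (adjusted p = 0.00236), -0.85 for Jak1 (adjusted p = 0.0313) and -0.59 for Ifnar2 (adjusted p = 0.0434), and only Jak2 met the criteria for a call. In each, LPS+ tlr4f/f-lysM-cre was below LPS- tlr4f/f-lysM-cre in all 3 libraries. In tlr4f/f the log2 differences between LPS+ and LPS- were 0.20, 0.03 and -0.31 in the same order. With 1 library left out, the adjusted p reached 0.0936 for Jak1 and 0.125 for Ifnar2, and the call of Jak2 was lost without any 1 of the 6 libraries headed LPS+, with an adjusted p of up to 0.0136. The value is the same when the 2 doubtful headings are exchanged. Groups of 3 libraries are too small for a test of single outlying libraries.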

How the results depend on the processing

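The number of the 8 genes called in LPS+ tlr4f/f-lysM-cre against LPS+ tlr4f/f was 5 under every alternative except an adjusted p below 0.05 with no fold limit, which gave 8. This looser limit gave 4 in LPS+ tlr4f/f-lysM-cre against LPS- tlr4f/f-lysM-cre (2 otherwise), 8 in LPS+ tlr4f/f-lysM-cre against LPS- tlr4f/f (4 otherwise) and 3 in the interaction (1 otherwise). Leaving out 1 library at a time gave 3 to 6 genes in LPS- tlr4f/f-lysM-cre against LPS- tlr4f/f, 0 to 3 in LPS+ tlr4f/f-lysM-cre against LPS- tlr4f/f-lysM-cre, 1 to 4 in LPS+ tlr4f/f-lysM-cre against LPS- tlr4f/f and 0 to 1 in the interaction, where fewer libraries enter the fit. Same-numbered libraries were not treated as paired, since only 5 of 18 pairs had a correlation of deviations over 0.1. With the replicate block, 0 genes were called in LPS+ tlr4f/f-lysM-cre against LPS- tlr4f/f-lysM-cre and 1 in LPS+ tlr4f/f-lysM-cre against LPS- tlr4f/f, and the cause was not tested. DESeq2, RLE factors, no filter, summed transcript rows and 1 fit of all 12 libraries kept each number within 1.5 times, with at most 8 genes in LPS- tlr4f/f-lysM-cre against LPS- tlr4f/f.

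Calls over all genes moved by more than 1.5 times with DESeq2 from 2497 to 4186 in LPS- tlr4f/f-lysM-cre against LPS- tlr4f/f, from 865 to 2176 in LPS+ tlr4f/f-lysM-cre against LPS- tlr4f/f-lysM-cre, from 1950 to 3088 in LPS+ tlr4f/f-lysM-cre against LPS- tlr4f/f and from 164 to 634 in the interaction. The block took the second of these to 212 and the third to 922. The fit of all 12 libraries took the first to 4251, LPS+ tlr4f/f-lysM-cre against LPS+ tlr4f/f from 3161 to 2045, and LPS+ tlr4f/f against LPS- tlr4f/f from 0 to 74, where no filter gave 34.

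Signs turned only in differences near 0 that were not called. In LPS+ tlr4f/f against LPS- tlr4f/f, Ifnar1 was 0.04 with the replicate block and -0.27 to 0.23 without 1 library, and Jak1 was -0.02 to 0.11. In LPS+ tlr4f/f-lysM-cre against LPS- tlr4f/f-lysM-cre, Ifnar1 was -0.00061 with DESeq2, -0.01 with RLE factors and -0.0045 with summed rows, Ifngr1 was -0.02 with DESeq2 and -0.03 with RLE factors, and without 1 library they ranged from -0.15 to 0.13 and from -0.17 to 0.16. In the interaction, Ifnar1 was -0.02 with DESeq2 and with RLE factors and -0.17 to 0.32 without 1 library, and Ifngr2 was -0.16 to 0.13. Of the 16 genes most like a member, 0 stayed with Spearman's rho. Depth limits Ifnb1, with at most 150 counts in a library, and the other ligands.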
